A study of Mus musculus with 20 samples.

Results

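Thiamet-G was set against control in fed mouse embryonic fibroblasts by Ribo-seq, which sequences the short RNA fragments that ribosomes protect from nuclease. The comparison takes 4 of the 20 libraries of the series, and 4 of its 12 Ribo-seq libraries, chosen by title: Thiamet-G 1 and 2 and control 1 and 2, where the number is the replicate number of the title. Cells of the Thiamet-G group were given 0.1 µM Thiamet-G for 16 h, and cells of the control group carry no treatment in the labels, which name no vehicle. Both groups are fibroblasts of strain C57BL/6J kept in serum-containing DMEM, a standard growth medium, and neither was starved. The other Ribo-seq libraries include 2 of Thiamet-G and 2 of control cells starved for 2 h. The remaining 4 are of cells with a knockout of Ogt, and 2 of these were also starved for 2 h. The labels give all 4 knockout libraries a treatment with 4-OHT, which no Thiamet-G or control library carries. All of these other libraries enter the shared estimate of spread. The series title places the question in the O-GlcNAc modification of the initiation factor subunit eIF3a. Nothing in the labels states that the libraries of a group are separate cultures. The p-values therefore speak of library-to-library spread alone, part or all of which may be technical.

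O-GlcNAc is a single sugar that O-GlcNAc transferase attaches to serines and threonines of nuclear and cytoplasmic proteins, and that O-GlcNAcase takes off again. Thiamet-G inhibits O-GlcNAcase, so it is used to raise O-GlcNAc on proteins. The factor eIF3 holds the small ribosomal subunit during initiation and can stay on the ribosome early in elongation, a state linked to the reading of a second open reading frame on the same mRNA, and the integrated stress response relies on such reinitiation to raise translation of mRNAs such as that of ATF4. Ribo-seq counts per coding region reflect both the amount of an mRNA and how many ribosomes it carries, and these cannot be told apart here. Nor can fewer cells of a kind and less RNA per cell, since each library is a bulk sample.

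In fed cells, no transcript passed the main test for a difference between Thiamet-G and control, which took no account of the replicate number. A fit of the 4 fed libraries with the number as a block, with 1 residual degree of freedom, called 10 of 10635 transcripts (0.094%). The ratios of the replicate numbers did not run in parallel across transcripts. The libraries of number 1 were alike, with 342 of 10936 transcripts (3.13%) more than 2-fold apart on the log2(RPKM + 1) scale. Those of number 2 were more than 2-fold apart at 4512 transcripts (41.3%). Transcripts unlisted in both libraries of a number count here as equal, and the files of the numbers differ in what they list. Short coding regions stood out within number 1, where 1 library is set against 1. Of 148 transcripts with a coding region of at most 300 nt and a mean of at least 100 RPKM, 137 were lower in Thiamet-G 1 than in control 1. In number 2, 68 were lower in Thiamet-G 2 than in control 2. Of the 1963 longer transcripts of that level, 1111 (56.6%) and 879 (44.8%) were lower in numbers 1 and 2. Coding regions of at most 300 nt held 8.34% of reads in control 1. They held 5.91% in control 2, and 6.08% and 5.46% in Thiamet-G 1 and 2. RPKM is the read number of a transcript scaled to its length and to the total of the library.

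The identifiers of the files are Ensembl mouse transcripts, and no table at hand paired them with gene names. Gene groups, markers of fibroblasts and other cell types, and the levels of Ogt, the O-GlcNAcase gene, Eif3a and Atf4 were therefore not analysed here. Transcripts are described by their coding length, their level and their listing. Total reads were 3430370 in Thiamet-G 1 and 1934368 in Thiamet-G 2, against 3350944 in control 1 and 3030545 in control 2. The median listed transcript had 102 and 52 reads in the Thiamet-G libraries, against 99 and 76 in the control libraries. Reads and coding lengths were recovered from the steps of the deposited RPKM values.

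The replicate number moved with what a file lists. Transcripts with under 5 reads made up 0.06% of the listed transcripts with recovered reads in Thiamet-G 1 and 17.19% in Thiamet-G 2, against 0.04% in control 1 and 14.06% in control 2. The files of number 1 thus list almost nothing below 5 reads, while those of number 2 list transcripts down to a single read. In all, 13637 transcripts were listed in at least 1 of the 4 libraries and 9551 in all 4. Both Thiamet-G libraries and neither control library listed 49 transcripts, and neither Thiamet-G library and both control libraries listed 59. Listing split far more often by number: 918 transcripts were listed in both files of number 2 and neither of number 1, with up to 2238 reads, and 114 in both files of number 1 and neither of number 2, with up to 107 reads.

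Levels were closest within number 1. Across the 10936 tested transcripts, which had a mean of at least 1 RPKM over the 12 Ribo-seq libraries, log2(RPKM + 1) correlated at r = 0.985 between Thiamet-G 1 and control 1 and at r = 0.849 between Thiamet-G 2 and control 2. Between replicates of a condition it was 0.823 for the Thiamet-G libraries and 0.877 for the control libraries, so each Thiamet-G library was closer to the control library of its number than to the other Thiamet-G library, while control 2 was closer to control 1 than to Thiamet-G 2. These coefficients describe the transcripts of each library pair, which share a library's depth and preparation, and are not tests. An unlisted transcript entered as 0, so a transcript unlisted in both libraries of a pair had no difference there. How much of the contrast between the numbers came from this was not worked out. The SD of the log2 difference across transcripts was 0.46 for Thiamet-G 1 minus control 1 and 1.45 for Thiamet-G 2 minus control 2. It was 1.57 for Thiamet-G 2 minus Thiamet-G 1 and 1.29 for control 2 minus control 1. In well-read transcripts these widths exceeded counting error. Over the 475 transcripts with a mean of at least 1000 reads, the SD of the log2 read ratio, with 0.5 added to each count, was 0.42 within number 1 and 0.666 within number 2, where counting alone would give 0.0501 and 0.127. In the same transcripts it was 1.29 between the Thiamet-G libraries and 1.41 between the control libraries, where counting would give 0.113 and 0.0758. Among the 3911 transcripts with 20 to 100 reads, the spread within number 1 was 0.62 against 0.579 from counting, while within number 2 it was 2.16 against 0.623. In that class it was 2.39 between the Thiamet-G libraries and 1.93 between the control libraries, so the control libraries were closer to each other than the pair of number 2 was.

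**Figure D1:**
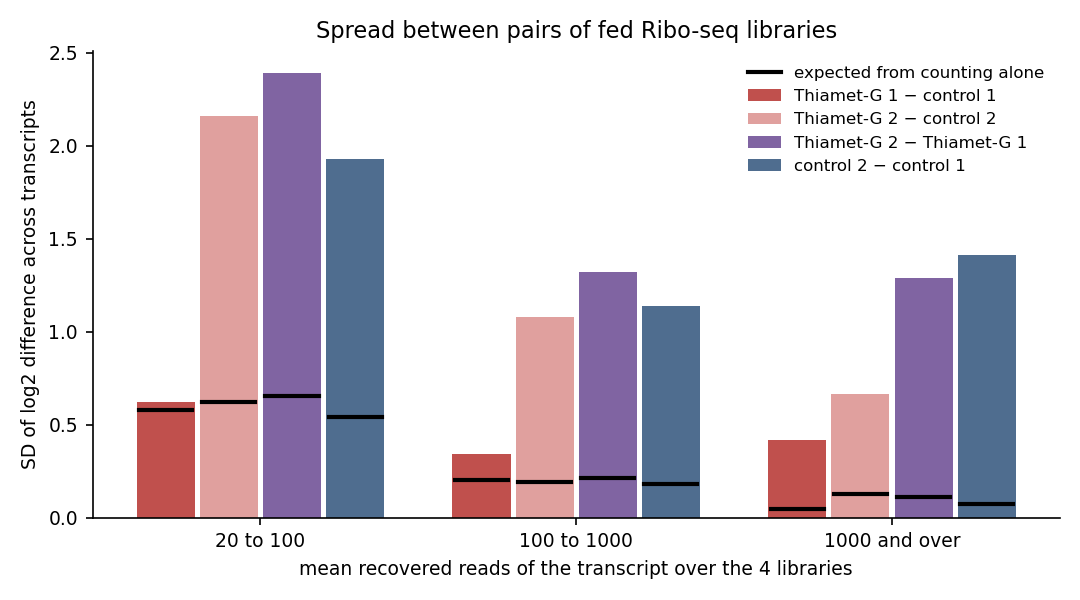
SD across transcripts of the log2 read ratio between pairs of fed Ribo-seq libraries (y axis), by mean reads of the transcript (x axis). Bars are the 4 library pairs and black lines the SD expected from counting alone; at 20 to 100 reads the pair of number 1 stands at 0.62 beside 0.579 from counting, and every other bar lies further above its line.

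The lists of most read transcripts overlapped more within a number than within a group. Of the 100 most read transcripts of each library, 87 were shared by Thiamet-G 1 and control 1, and 82 by Thiamet-G 2 and control 2. The Thiamet-G libraries shared 75 with each other and the control libraries 72, and 68 were among the top 100 of all 4. The 10 most read transcripts held 5.52% and 5.31% of the reads of the Thiamet-G libraries, against 6.12% and 7.55% in the control libraries. The groups did not overlap in this share, but 2 libraries against 2 cannot give a two-sided exact permutation p below 0.333. The mean difference was -1.42 points, and -0.705 without control 2 or -2.14 without control 1.

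The test across all transcripts made no call. The fit was limma on log2(RPKM + 1) over the 12 Ribo-seq libraries in 6 groups, with Benjamini-Hochberg adjustment over all 10936 transcripts and a threshold of 0.05. It called 0 transcripts higher (0%) and 0 lower (0%) in Thiamet-G, and 51 (0.466%) lay below an unadjusted p of 0.05, 20 of them higher and 31 lower. With limma-voom on the recovered reads, 0 of 9914 transcripts were called and 12 (0.121%) had an unadjusted p below 0.05. The median fitted log2 fold change, Thiamet-G minus control, was -0.01 in the fit of 12 libraries. That fit took no account of the replicate number, so differences between the numbers counted as spread.

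The libraries could not bound most differences tightly. The median half-width of the 95% interval of a log2 fold change was 1.92. The interval lay inside a 2-fold change in either direction for 2 of the 10936 transcripts. Precision improved with level and then levelled off: the median half-width stood for a 5.01-fold change below 10 RPKM, 3.34-fold from 10 to 100 RPKM, 2.46-fold from 100 to 1000 RPKM and 2.44-fold from 1000 RPKM up. These intervals are not adjusted for the 10936 transcripts tested, so a call needed a larger difference than these widths. Simulated data with the levels of these libraries give a sense of that size: of 67 transcripts given a 2-fold change 0 were called, of 67 with a 4-fold change likewise 0, and of 66 with an 8-fold change 2, with 0 false calls. The changed transcripts were drawn only from those above the median level, so changes at lower levels were not simulated. The noise of each library was drawn independently, without deviations shared by number. Its size came from the spread within groups without a block, so differences between the numbers were part of it. The simulation therefore speaks of the fit without a block alone.

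**Figure D2:**
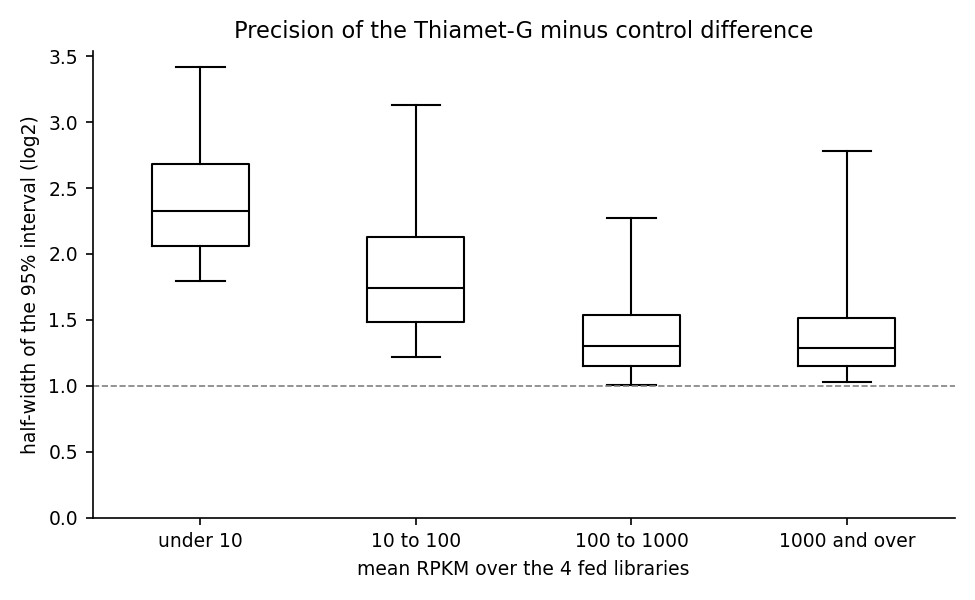
Half-width of the 95% interval of the Thiamet-G minus control log2 fold change (y axis) by mean RPKM of the 4 fed libraries (x axis). Boxes span the 25th to 75th percentiles of transcripts with the median as a line, whiskers the 5th to 95th; the dashed line marks a 2-fold change, and the median box line stands at 2.33 below 10 RPKM and 1.29 from 1000 RPKM up.

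Within the replicate numbers, which the comparison was defined by, the ratios of Thiamet-G to control did not correlate across transcripts (r = -0.0126 over 10936 transcripts, r = -0.0409 over 7039 with a mean of at least 10 RPKM, r = -0.0585 over 2111 with at least 100 RPKM). Differences of more than 2-fold in both numbers were seen in the same direction for 99 transcripts, 44 higher and 55 lower in Thiamet-G, and in opposite directions for 80. At 10 RPKM and over, 26 went the same way and 22 opposite ways, and at 100 RPKM and over 4 and 3 did. Both Thiamet-G libraries lay above both control libraries for 943 transcripts (8.62%), and below both for 1311 (12%). Deviations of the libraries from their group means correlated at 0.446 between the groups by number, across transcripts.

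**Figure D3:**
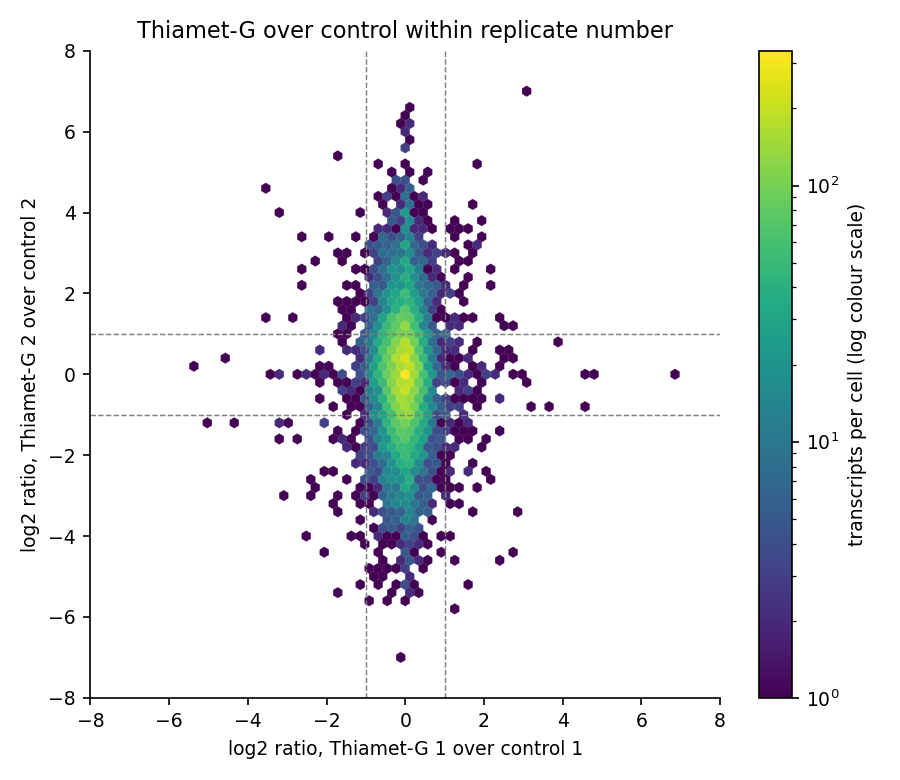
Log2 ratio of Thiamet-G over control within replicate number 1 (x axis) and within number 2 (y axis) for the 10936 tested transcripts, on the log2(RPKM + 1) scale. Colour gives transcripts per hexagon on a log scale and dashed lines mark 2-fold changes; the cloud is tall and narrow, with an SD of 0.46 along x and 1.45 along y, and has no slope (r = -0.0126).

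Because the numbers differed in what the files list, the 4 fed libraries were also fitted with the number as a block. That fit called 10 of 10635 transcripts (0.094%), 3 higher (0.0282%) and 7 lower (0.0658%) in Thiamet-G, and 556 (5.23%) had an unadjusted p below 0.05. It has 1 residual degree of freedom and takes its spread from the trend across transcripts. A block over all 12 libraries, with the numbers of the file names, called 0 (0%), and 164 (1.5%) had an unadjusted p below 0.05. The 7 lower ones had log2 ratios of -6.98 to -3.68 in number 2 and of -1.05 to 0.25 in number 1, and 1 of the 7 was more than 2-fold lower in both. All 7 had coding regions of at most 600 nt, as did 1 of the 3 higher ones, and 4 of the 7 were not listed in Thiamet-G 2. For comparison, the 10936 transcripts of the 12-library fit included 213 of at most 300 nt and 1267 of 301 to 600 nt. The matching shares among the 10635 transcripts of the blocked fit were not worked out. Whether its calls favour short coding regions was not tested. Of the 3 higher ones, 2 were more than 2-fold higher in both numbers.

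Among transcripts of 10 RPKM and over whose groups did not overlap, the 10 with the highest and the 10 with the lowest mean ratio over both numbers were taken for description. They were selected on these values, which carry no further test. They came from 613 higher (8.71%) and 843 lower (12%) of 7039 transcripts. In the fit of 12 libraries each had an adjusted p of 1. The 10 higher ones had coding regions of 210 to 1116 nt and the 10 lower ones of 249 to 855 nt, and 3 and 8 of them were unlisted in at least 1 of the 4 libraries. In starved cells, 4 of the 10 higher and 7 of the 10 lower transcripts had a fitted Thiamet-G minus control difference of the same sign, with medians of -0.05 and -0.28 on the log2 scale. None of the 20 was listed in all 3 fed libraries of eIF3-80S-seq, the companion assay of the series, which sequences footprints of ribosomes associated with eIF3. Of these 20, the pair per direction with the lowest adjusted p in the blocked fit of 4 libraries is described next, an order chosen after the values were seen. RPKM values are given after rescaling between libraries, and an unlisted transcript entered the fit as 0.

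ENSMUST00000095097 (coding length 1116 nt) was the most highly read of them. Its level was 581 RPKM in Thiamet-G 1 and 297 RPKM in Thiamet-G 2, against 127 RPKM in control 1 and 45.1 RPKM in control 2. Both Thiamet-G libraries were above both control libraries, and the reads behind these values were 2190 and 620 in Thiamet-G against 441 and 153 in control. The log2 ratio was 2.19 in number 1 and 2.69 in number 2. The fit of 12 libraries gave a log2 fold change of 2.44 with a standard error of 2.8 and a limma adjusted p of 1, while the blocked fit of 4 libraries gave 2.48 with an adjusted p of 0.000273. In starved cells its level was 427 RPKM in Thiamet-G 1 and not listed in Thiamet-G 2, against not listed in control 1 and 247 RPKM in control 2. The starved files that list it hold 402 and 435 of its reads, so it was well read in 1 library and absent from the file of the other library in both starved groups. By the numbers of the file names, starved Thiamet-G 1 carries number 2. Its starved listing thus followed the file-name number: both files of number 2 list it and both of number 1 do not.

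ENSMUST00000036088 (coding length 210 nt) was listed in both Thiamet-G libraries and in neither control library. It had 7.05 RPKM from 5 reads in Thiamet-G 1 and 132 RPKM from 52 reads in Thiamet-G 2. The 5 reads of Thiamet-G 1 lie at the lowest count that the files of number 1 normally list, so its absence from control 1 bounds it only near that count. The fitted log2 fold change was 5.03 (95% interval 1.35 to 8.72, limma adjusted p = 1), a value that depends on the 1 RPKM added before taking logs. Starved, it had 33.9 RPKM from 6 reads in Thiamet-G 1 and was not listed in Thiamet-G 2, while control 1 did not list it and control 2 had 3.02 RPKM from 1 read.

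The lower pair rested on the library Thiamet-G 2. ENSMUST00000067955 (249 nt) had 61.8 RPKM in Thiamet-G 1 and was not listed in Thiamet-G 2, against 70.9 RPKM in control 1 and 126 RPKM in control 2. ENSMUST00000120040 (411 nt) had 36.0 RPKM in Thiamet-G 1 and was not listed in Thiamet-G 2, against 67.2 RPKM in control 1 and 46.5 RPKM in control 2. Thiamet-G 1 was thus close to the control libraries for ENSMUST00000067955, with a log2 ratio of -0.2 in number 1, and somewhat lower for ENSMUST00000120040, with -0.88. Without Thiamet-G 2 in the fit, the log2 fold changes were -0.61 and -0.63, against -3.59 and -3.23 with it, and the adjusted p was 1 with and without it. Without Thiamet-G 1 they were -6.58 and -5.83, with adjusted p of 0.0976 and 0.215. In starved cells both were listed in all 4 libraries, ENSMUST00000067955 at 19.1 and 32.1 RPKM in Thiamet-G against 49.4 and 15.3 RPKM in control, and ENSMUST00000120040 at 26.0 and 106 RPKM in Thiamet-G against 52.7 and 88.0 RPKM in control, so the groups overlapped.

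**Figure D4:**
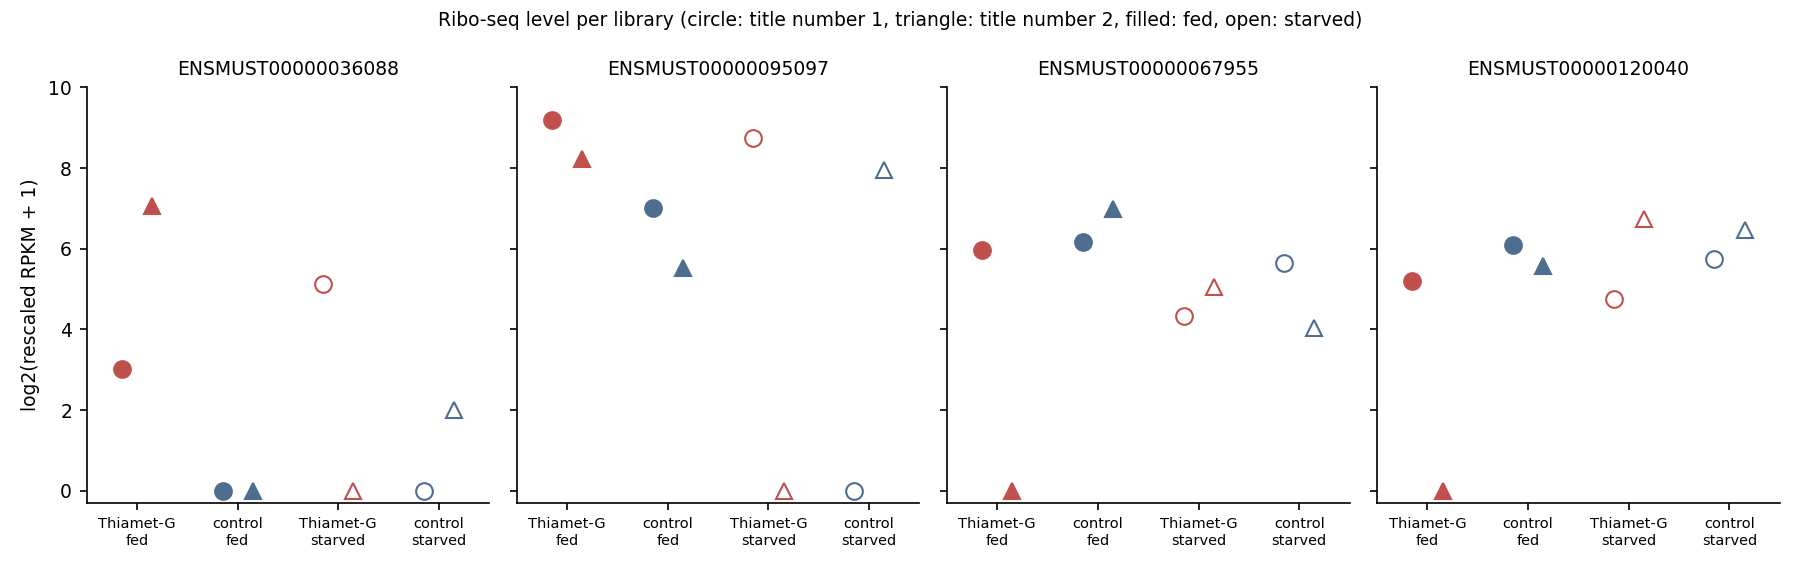
Level of 4 transcripts in the fed and starved Thiamet-G and control Ribo-seq libraries, as log2(rescaled RPKM + 1), where 0 stands for not listed. Each point is 1 library, circles carry title number 1 and triangles number 2; the first pair has both fed Thiamet-G points above both fed control points, and in the second pair Thiamet-G 2 stands at 0 while Thiamet-G 1 lies near the controls.

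The ratios by coding length differed between the numbers. The classes were chosen with the data in view, and the medians are descriptions without a test. Within number 1, the median log2 ratio of Thiamet-G to control was -0.50 for the 213 tested transcripts with coding regions of at most 300 nt, of which 168 were lower in Thiamet-G. It was -0.17 for the 1267 of 301 to 600 nt, 0.00 for the 3182 of 601 to 1200 nt, -0.04 for the 4774 of 1201 to 3000 nt and 0.03 for the 1446 of over 3000 nt. Within number 2 the class medians lay between -0.02 and 0.04. Coding regions of at most 300 nt include those of many small ribosomal and mitochondrial proteins in general, but which ones are measured here was not analysed.

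The shift within number 1 concerned the well-read short coding regions. At a mean of 100 RPKM and over, the 148 transcripts of at most 300 nt had a median log2 ratio of -0.59 in number 1 and 0.05 in number 2. In number 1 the ratios ran from -0.96 at the 10th percentile to -0.15 at the 90th, and 92.6% of the transcripts were lower in Thiamet-G 1. The 1963 longer transcripts of the same level had medians of -0.05 in number 1 and 0.08 in number 2, with 1111 (56.6%) and 879 (44.8%) lower in Thiamet-G. The 65 short transcripts below 100 RPKM had a median of 0.00 in number 1, with 31 lower, and of -0.25 in number 2, with 35 lower. A transcript listed in neither library of a number has a ratio of 0.00 there, and such ties were not counted. In starved cells, paired by the numbers of the file names, the same 148 transcripts had medians of 0.46 and 0.18, with 40 and 60 lower in Thiamet-G. Log2 ratios of Thiamet-G to the control mean in eIF3-80S-seq were centred on their median over tested transcripts listed in all 3 fed libraries. Of the 148, 89 were among these, with a median of -0.04 and 46 negative ratios. The count of 137 lower in number 1 was 137 with RPKM as deposited and 130 with quantile normalization, and the count of 68 in number 2 was 75 and 71. The test across transcripts called none of these 148, and 2 had an unadjusted p below 0.05. So did 2 of the 1963 longer transcripts of the same level, and 51 of all 10936 tested (0.466%).

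Shares of reads gave the same classes on the scale of whole libraries. Coding regions of at most 300 nt held 6.08% and 5.46% of the reads of the Thiamet-G libraries, against 8.34% and 5.91% in the control libraries. The difference was -2.26 percentage points in number 1 and -0.447 in number 2, and the Thiamet-G and control groups overlapped. The means were 5.77% ± 0.437 in Thiamet-G and 7.12% ± 1.72 in control (SD, n = 2 each, two-sided exact permutation p = 0.667). Their difference of -1.35 points was -0.138 without control 1 and -2.56 without control 2. Coding regions of 301 to 600 nt held 34.0% and 28.4% in Thiamet-G, against 35.0% and 28.6% in control, again split by number rather than by group. Those of 601 to 1200 nt held 32.3% and 32.9% in Thiamet-G, against 29.6% and 31.7% in control, and here both Thiamet-G libraries lay above both control libraries. Their mean difference was 1.96 points (32.6% ± 0.43 in Thiamet-G and 30.7% ± 1.44 in control, SD, n = 2 each, two-sided exact permutation p = 0.333, the smallest that 2 against 2 allow). Without control 1 this difference was 0.935 points, and without control 2 it was 2.98 points. The classes of 1201 to 3000 nt and over 3000 nt held 21.8% and 26.2%, and 5.84% and 7.04%, in Thiamet-G, against 21.7% and 27.6%, and 5.31% and 6.19%, in control, with exact permutation p of 1 and 0.667. The 5 classes were compared without further adjustment, since none could pass.

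**Figure D5:**
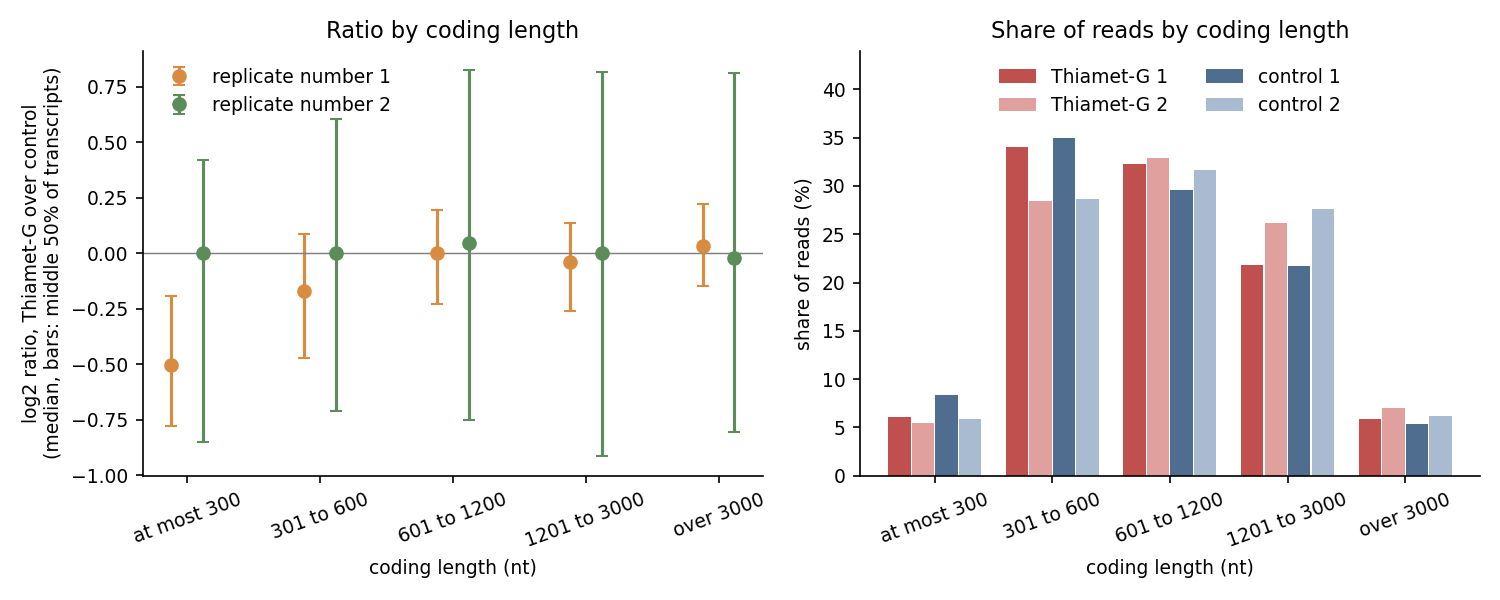
Left, median log2 ratio of Thiamet-G over control by coding length (x axis) within replicate numbers 1 and 2, with bars from the 25th to the 75th percentile of transcripts. Right, percent of each library's reads by coding length in the 2 Thiamet-G and 2 control libraries; within number 1 the shortest class is at -0.50 and its share at 6.08% in Thiamet-G 1 against 8.34% in control 1, while libraries of the same number stand together from 301 to 600 nt.

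The median ratio also moved with level in number 1. It was 0.00 below 10 RPKM (3897 transcripts), -0.05 from 10 to 100 RPKM (4928), -0.07 from 100 to 1000 RPKM (1854) and -0.22 from 1000 RPKM up (257). In number 2 the medians were -0.01, 0.03, 0.08 and 0.09. The most highly read class was also the shortest, with a median coding length of 402 nt, against 1941 nt below 10 RPKM. Among its 257 transcripts, the 61 of at most 300 nt had a median of -0.59 in number 1 with 57 lower, and the 196 longer ones a median of -0.04 with 106 lower. Differences of more than 2-fold were few in number 1 at every level, from 6.59% of transcripts below 10 RPKM to 0.539% from 100 to 1000 RPKM. In number 2 they made up 50.9% below 10 RPKM and 7.39% from 1000 RPKM up.

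Starved cells and the companion assay gave comparisons that share no library with the fed contrast. In starved cells, the same fit called 0 transcripts (0%) between Thiamet-G and control, with 316 (2.89%) below an unadjusted p of 0.05, and the limma test of the fed minus starved difference called 0, with 145 (1.33%) below it. The fed ratio correlated with the starved contrast at r = 0.07 in number 1 and r = 0.04 in number 2 over 10936 transcripts, and at -0.13 and -0.02 over the 2111 of at least 100 RPKM. In eIF3-80S-seq, 3820 of the tested transcripts were listed in the Thiamet-G library and both control libraries of fed cells. The SD of the log2 ratio of Thiamet-G to the control mean was 0.551 across them, and that of the ratio between the control libraries was 0.730. These measures are unlike, since a mean of libraries varies less than 1 library. Depth differed too, with 359282 total reads in Thiamet-G and 148884 and 199785 in control. Centred on its median over the 3820 transcripts, the ratio to the control mean was more than 2-fold for 227 of them (5.94%). With 1 Thiamet-G library there is no test. The eIF3-80S ratio correlated with the fed Ribo-seq ratio at r = -0.07 in number 1 and r = 0.05 in number 2.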

How the data were processed

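The authors deposited RPKM values of Ensembl transcripts, 1 file per library. Cutadapt and STAR appear in the submitters' processing notes, as does GRCm38 as the build. Not given in the sources used here are the counter, the annotation release and any listing threshold. Whole reads, totals and coding lengths were recovered from the RPKM steps (relative tolerance 1e-06) for 13278 of 15354 transcripts, with 96.56% to 99.86% of values in the 4 fed Thiamet-G and control libraries. Of these lengths, 99.79% were multiples of 3. On simulated data of 4000 transcripts, 6 of 6 totals and 97.57% of values came out exactly. Counting SDs cover counting error only, since PCR reads without molecular identifiers are not independent molecules.

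RPKM was rescaled by median ratios and tested with limma 3.58.1 under R 4.3.3 (lmFit, eBayes with a trend, two-sided, 6 residual degrees of freedom, Benjamini-Hochberg adjusted p under 0.05) on log2(RPKM + 1) with a mean of at least 1 RPKM. This scale understates changes of low transcripts. Summaries used Python 3.11.15. Alternatives were the pseudocount, the filter, the scaling, replicate blocks, the fit of 4 libraries, limma-voom on the recovered reads (mean of 10 reads or more), and leaving out each library. Groups came from titles. The description field of control 2 says replicate 1, while its title gives number 2, which was used. The numbers were taken to pair the fed libraries, since the comparison is defined by them, listing followed them and deviations by number correlated at 0.446. Numbers of titles and file names are opposite for the starved Thiamet-G libraries. Named transcripts were to be those called, then the 10 per direction with the largest mean ratio, at least 10 RPKM and groups that do not overlap, with at most 2 identifiers printed per direction. The members, lists and classes were chosen with earlier results of these data known. Gene lists and sequences were left out, since no identifier matched a symbol.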

Additional observations from a re-analysis of the deposited data

Results flagged for a closer look

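Fed libraries were paired here by title number and starved libraries by file-name number. So paired, the Thiamet-G minus control difference in read share of short coding regions was negative in both fed and positive in both starved pairs. This contrast between feeding states was not tested. For coding regions of at most 300 nt, Thiamet-G minus control was -2.26 and -0.447 percentage points in the fed pairs of numbers 1 and 2. It was 0.63 and 0.09 points in the starved pairs with file-name numbers 1 and 2. The fed and starved means differed by -1.71 points. Both starved pairs were also positive by title number, with 4.02% in Thiamet-G against 3.95% in control, and 4.58% against 3.93%. The fed mean of -1.35 points was -0.138 without control 1, -2.56 without control 2 and -3.42 as a share of summed RPKM. For coding regions of 301 to 600 nt the fed pairs gave -1.02 and -0.255 points and the starved pairs 4.6 and 0.6 points, a difference of -3.24 points. Paired by title number instead, starved Thiamet-G 2 held 21.8% against 23.2% in starved control 2, so that starved pair was negative. Here the sign of the fed mean of -0.636 points was not stable: it was 0.622 as a share of summed RPKM, 2.16 without Thiamet-G 2 and 2.55 without control 1. In each state 1 pair carried most of the shift.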

How the results depend on the processing

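The count of 0 calls between Thiamet-G and control in fed cells was 0 under 16 of the 17 alternatives, and 10 with the replicate block in the fit of the 4 fed libraries. Unadjusted p below 0.05 ranged with the library left out, from 12 without Thiamet-G 2 and 13 without control 2 to 265 without control 1 and 669 without Thiamet-G 1. The starved contrast and the fed minus starved difference gave 0 calls under all 15 alternatives that were run. The number of transcripts whose 95% interval lay inside 2-fold, 2 as reported, was 8 with a pseudocount of 0.1, 2594 without the filter on low values, 0 among transcripts listed in all 12 files, 14 with quantile normalization, 8 with RPKM as deposited, 0 with the replicate block of the titles, 52 with the replicate block of the file names, 11 in the fit of 4 libraries, 535 in that fit with the replicate block, 67 with limma-voom and 352 with limma-voom and the replicate block. It was 0 to 0 over the leave-one-out fits, and 54 among transcripts listed in all 12 files with the file-name block, a setting added after the data were seen, as were the scalings of the short-transcript counts. The share of reads on coding regions of 301 to 600 nt, Thiamet-G minus control, turned to 0.622 points as a share of summed RPKM, and ranged from -3.82 to 2.55 points when a library was left out, turning positive without Thiamet-G 2 (2.16) or control 1 (2.55). That of 1201 to 3000 nt turned to 0.104 points, and ranged from -3.59 to 2.27, turning positive without Thiamet-G 1 (1.54) or control 2 (2.27). The classes of at most 300 nt, 601 to 1200 nt and over 3000 nt kept their sign, over -3.42 to -0.138, 0.935 to 2.98 and 0.0911 to 1.29 points, with the smallest sizes without control 1, control 1 and Thiamet-G 2. The cause was not tested. ENSMUST00000036088, ENSMUST00000095097, ENSMUST00000067955 and ENSMUST00000120040 kept their sign in each setting that gave a value, with log2 fold changes of 3.02 to 8.27, 1.7 to 3.18, -6.58 to -0.61 and -5.83 to -0.63, and passed the threshold with the replicate block in the fit of 4 libraries alone (adjusted p 0.000273, 0.000273, 0.000273 and 0.019). A library left alone in its group was assumed to vary like the other groups. Depth limits what the lowest transcripts can show.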
